A study of Mus musculus with 8 samples.

Results

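Gm12794 and BC061212, a pair of PRAME-like genes, were followed in mouse embryonic stem cells (ESCs) sorted by the activity of Zscan4. Both were taken by the name of their probe, Z00054501-1 for Gm12794 and Z00031385-1 for BC061212, so the members were 2 of the 42006 different probes of the array, each with 1 spot on each of 8 arrays. The cells were ES [129.3:zscan4cEmgfp] cells of strain 129/Sv, a reporter line in which a Zscan4c promoter drives the green fluorescent protein Emerald, and positive and negative cells were separated by fluorescence. RM-Zscan4+ and RM-Zscan4- were the Emerald-positive and Emerald-negative cells of cultures in regular medium, with 3 biological replicates each. RA-Zscan4+ and RA-Zscan4- were the same sorts from cultures in retinoic acid (RA), taken on the fifth day, with 1 replicate each. All groups came from the same reporter line, so the spread between replicates does not hold the spread between lines. Every array carried the sorted cells in Cy3 and a reference RNA pooled from 11 mouse cell lines in Cy5.

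The PRAME family is named after a human antigen preferentially expressed in melanoma and is a large group of leucine-rich repeat proteins, much expanded in the mouse, where many members are active in germ cells and in the earliest cleavage stages of the embryo. Human PRAME is known as a repressor of retinoic acid receptor signaling. Zscan4 encodes a zinc finger protein that a small and changing share of ESCs switches on for a short time, together with other genes of the early embryo, and this transient condition is called the Zscan4 metastate. The study counts Gm12794 and BC061212 with the genes that mark it.

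RefSeq lists Gm12794 as Pramel19 (GRCm38.p6, chr4:101940407-101943183, plus strand, 2777 bases). It lies in a cluster of related genes: Pramel18 (chr4:101909121-101911908) is its nearest neighbor on the side of lower coordinates, 28499 bases away, and Pramel17 (chr4:101834969-101844022, minus strand) lies farther along the same side. Pramel17 and Pramel18 also had a named probe on the array, under the older names B020004J07Rik and LOC381535. No position was taken for BC061212, because the gene table used here does not list that name, and no source used here places it in the PRAME family beyond its grouping with Gm12794. The exon that each probe matches was not mapped, because no genome sequence was used. The probes are shown because the measurement rests on them, and capitals in the Gm12794 and LOC381535 probes mark the bases at which they differ.
Gm12794: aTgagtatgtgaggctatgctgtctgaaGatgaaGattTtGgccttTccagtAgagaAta
LOC381535 (Pramel18): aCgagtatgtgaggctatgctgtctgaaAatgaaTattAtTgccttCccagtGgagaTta
BC061212: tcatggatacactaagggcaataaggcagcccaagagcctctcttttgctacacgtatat
The Gm12794 and LOC381535 probes could be set against each other over all 60 bases without a gap, and 52 of the 60 bases were identical (86.7%), with 8 mismatches. Transcripts of either gene may therefore give signal on the other probe, and a value of one cannot be fully told apart from the other. LOC381535 was the only other probe of the array that shared a run of 15 bases with the Gm12794 probe. The BC061212 probe shared such a run with 0 of the other probes.

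The promoter of Gm12794 is given because Gm12794 followed the sort on every array. The window is chr4:101940157-101940456 of GRCm38.p6, plus strand, from RefSeq, with 250 bases before the annotated start in lower case and 50 bases from the start on in capitals.
Gm12794 promoter: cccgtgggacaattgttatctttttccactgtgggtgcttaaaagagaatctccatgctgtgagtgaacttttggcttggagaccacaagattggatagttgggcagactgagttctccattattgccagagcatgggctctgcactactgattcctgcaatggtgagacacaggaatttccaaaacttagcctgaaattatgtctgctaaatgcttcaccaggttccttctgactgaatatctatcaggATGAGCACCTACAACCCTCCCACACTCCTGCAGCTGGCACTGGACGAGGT
It was searched on both strands for AGGTCA, the half-site of retinoic acid receptors, and for TGCACAC, a motif given for Zscan4, and held 0 matches to either. The Pramel17 window also held 0 matches to either. Of the 32851 promoter windows of the same length in the table, 16.3% held AGGTCA and 4.4% held TGCACAC. A window without these letters says nothing of binding elsewhere. The capitals begin with ATG, and whether the annotated start is that of transcription or of translation was not tested. The window may therefore not be the promoter itself. The table had a promoter for 1 of the 2 members.

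The arrays differed in signal, with a median Cy3 intensity above local background of 114 to 241 and a median Cy5 intensity of 254 to 501. Both RA arrays had the lowest Cy3 medians, 118 for RA-Zscan4+ and 114 for RA-Zscan4-. RM replicate 2 came next, with 122 for RM-Zscan4+ and 136 for RM-Zscan4-, and had the lowest Cy5 medians, 254 and 268. Of the 314 negative controls, 95 in 100 stayed below a processed Cy3 intensity of 88.6 to 125, depending on the array. Zscan4 itself was higher in the positive sort, as the labels say, by 27.8-fold in RM and 19.1-fold in RA. Of the ESC and feeder cell markers listed for this work, only Fbxo15, an ESC gene, had a named probe, and its log2 ratio to the reference was between 2.79 and 5.56 on all arrays. Contents of feeder cells were therefore not tested. In bulk RNA, more cells that express a gene and more RNA per cell cannot be told apart.

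Gm12794 was bright in every Zscan4+ sample and close to the negative controls in every Zscan4- sample. Its processed Cy3 intensity was 3168, 6864 and 2414 in RM-Zscan4+ replicates 1 to 3 and 143, 176 and 254 in RM-Zscan4-. With RA, the positive cells gave 7616 and the negative cells 176. The lowest Zscan4+ array was thus far above the highest Zscan4- array, and the groups did not overlap. How many of all probes also had no overlap was not counted, so this is a description. Expressed as a log2 ratio to the reference, the level was 4.02, 4.52 and 2.91 in RM-Zscan4+ and -0.46, -0.57 and 0.13 in RM-Zscan4-, and with RA it was 4.60 in positive and -0.21 in negative cells. The Zscan4- signals were only between 1.40 and 2.06 times the 95th percentile of the negative controls of their array, and the Zscan4+ signals between 20.4 and 76.1 times. The error that the scanner software gave to the log2 ratio was accordingly larger on the Zscan4- arrays (0.79 to 1.00) than on the Zscan4+ arrays (0.31 to 0.39).

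BC061212 showed the same split. The processed Cy3 intensity of its spot was 9696, 13520 and 7271 in RM-Zscan4+ and 398, 408 and 539 in RM-Zscan4-. With RA, the positive cells gave 35437, the highest value of the 8 arrays for this gene, and the negative cells 620. No Zscan4- array reached the range of the Zscan4+ arrays, which is again a description without the share of all probes. The log2 ratio to the reference was 3.86, 4.33 and 3.56 in RM-Zscan4+ and -0.40, -0.31 and 0.15 in RM-Zscan4-. With RA it reached 5.15 in positive and 0.64 in negative cells, so each RA array was above every RM array of its sort. The Zscan4- signals were between 3.25 and 6.79 times the 95th percentile of the negative controls of their array, although the software marked the spot as not found on all 4 Zscan4- arrays.

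**Figure D1:**
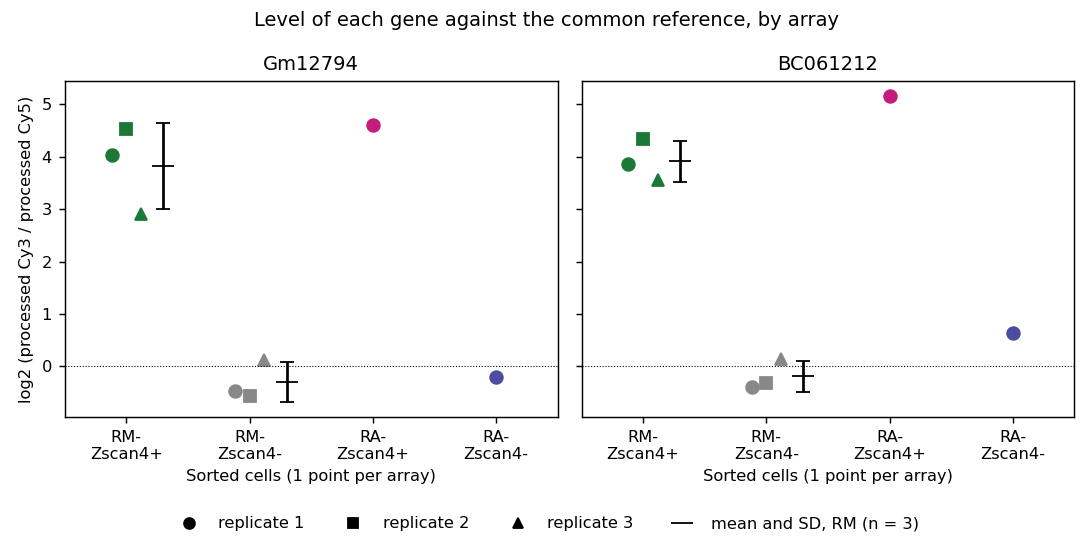
Log2 ratio of processed Cy3 (sorted cells) over processed Cy5 (common reference) of Gm12794 and BC061212 on each of the 8 arrays, with 1 point per array, the shape giving the replicate number and the bars the mean and SD of the 3 RM arrays. The 4 Zscan4+ arrays lie between 2.91 and 5.15 and the 4 Zscan4- arrays between -0.57 and 0.64.

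In regular medium, both genes rose in Zscan4+ cells. The mean log2 ratio of Gm12794 was 3.82 ± 0.82 (SD, n = 3) in RM-Zscan4+ and -0.30 ± 0.38 (SD, n = 3) in RM-Zscan4-. The difference of 4.12 on the log2 scale, or 17.4-fold, had a standard error of 0.42 and a 95% confidence interval from 3.09 to 5.15 (limma, adjusted p = 0.0369). The mean log2 ratio of BC061212 was 3.92 ± 0.39 (SD, n = 3) in RM-Zscan4+ and -0.19 ± 0.29 (SD, n = 3) in RM-Zscan4-. Its rise of 4.10, or 17.2-fold, had a standard error of 0.23 and an interval from 3.53 to 4.67 (limma, adjusted p = 0.00378). The sizes of the 2 rises were thus nearly equal, and the interval of Gm12794 held that of BC061212. Unless a block is named, the limma fits here and below did not pair the arrays by replicate number, and neither did these intervals. With the replicate number as a block, the adjusted p in limma was 0.0802 for Gm12794 and 0.0415 for BC061212. With a rise counted at an adjusted p under 0.15 and at least 3-fold, 2 of 2 members were called, against 81 of all 42006 probes, or 0.193%. By size of the ratio change alone, Gm12794 was in place 17 and BC061212 in place 20 among all probes from the largest rise down (32 and 29 from Cy3 alone), while the median probe changed by -0.01.

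The call of Gm12794 was the less stable of the 2. It was lost when replicate 1 of RM-Zscan4+ was left out (log2 change 4.02, limma, adjusted p = 0.231). It was also lost when either replicate 1 (4.04, limma, adjusted p = 0.233) or replicate 2 (3.99, limma, adjusted p = 0.206) of RM-Zscan4- was. BC061212 was called without any one of the 6 RM arrays, and its adjusted p in limma then lay between 0.00779 and 0.0484. Under the stricter t-statistics of the study's methods, neither gene was called (adjusted p = 1.00 for Gm12794 and 0.293 for BC061212), nor was any other probe. An exact permutation test of 3 against 3 arrays gave each gene a two-sided p of 0.1, the smallest it can give.

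In RA, the change between the sorts was again large for both, from 1 array against 1 and so without a test. The log2 ratio of Gm12794 was 4.81 above that of the negative cells, or 28.1-fold. BC061212 was 4.52 higher, or 22.9-fold. Both members passed 3-fold, as did 204 of 41958 probes with a value, or 0.486%, and by ratio they stood at places 6 and 9 from the largest rise down. Names of probes came from a list the study made of genes at least 3-fold higher in this same pair of arrays, so this count is no independent evidence of the direction. For counts of named genes in RM, all probes are likewise no like background, since the names were picked through the same sort. Taken from the Cy3 channel alone, the folds were 42.3 for Gm12794 and 55.8 for BC061212, and the places 31 and 22.

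**Figure D2:**
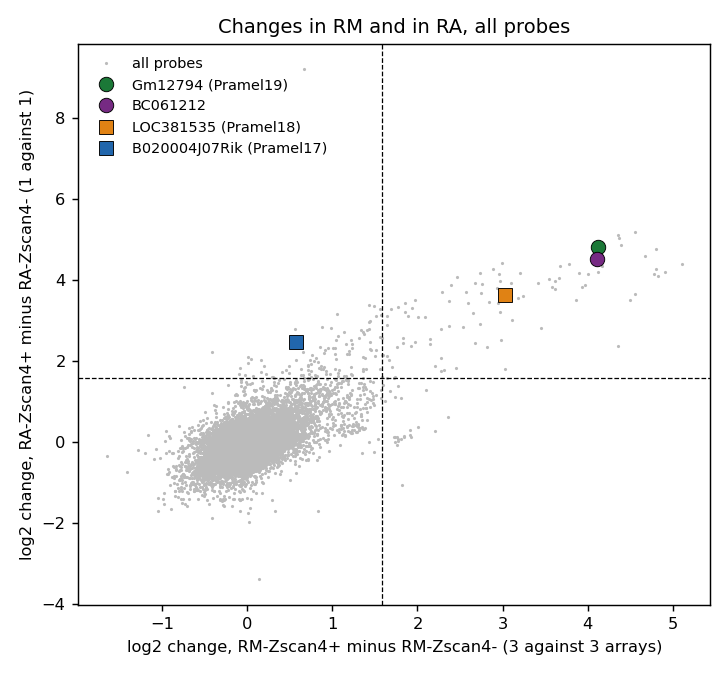
Log2 change of every probe between Zscan4+ and Zscan4- cells in RM (horizontal axis, 3 against 3 arrays) and in RA (vertical axis, 1 against 1 array), with dashed lines at 3-fold. Gm12794 at 4.12 and 4.81 and BC061212 at 4.10 and 4.52 lie next to each other at the upper right, LOC381535 (Pramel18) at 3.03 and 3.62, and B020004J07Rik (Pramel17) at 0.57 and 2.46 is past 3-fold in RA alone.

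The replicate pairs give the range within which the RA pair can be read. For Gm12794 the log2 change within a pair was 4.48 in RM replicate 1, 5.09 in replicate 2 and 2.78 in replicate 3, against 4.81 in RA. For BC061212 it was 4.26, 4.64 and 3.41, against 4.52 in RA. By ratio, the RA change of each gene was thus inside the range of its 3 RM pairs. From Cy3 alone it was above all of them: 5.40 in RA against 4.42, 5.29 and 3.35 in RM for Gm12794, and 5.80 against 4.56, 5.05 and 3.85 for BC061212. The RA change minus the RM change, in log2 units, was 0.69 for Gm12794 (standard error 0.85, interval from -1.37 to 2.76, limma, adjusted p = 1.00) and 0.41 for BC061212 (standard error 0.47, interval from -0.72 to 1.55, limma, adjusted p = 1.00). These intervals reach from a smaller change in RA to one several times larger, so the data do not settle whether the changes differ. Of all 41958 probes tested for this difference, 0 (0%) passed, the lowest adjusted p in limma was 0.154, and 1120 had an unadjusted p under 0.05. For the unreplicated RA groups, the fit borrows its spread from the RM groups.

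Replicate 3 of RM had the smallest change between the sorts in both genes and replicate 2 the largest. The same order of the extremes held for the 6 other genes of the Zscan4 signature, Zscan4 included, so it was seen in 8 of 8 genes. How many of all probes had this order was not counted. These genes mark the same metastate and are not independent of each other, so this is a description. LOC381535 also had its largest change in replicate 2, but its smallest in replicate 1 (2.434, against 2.455 in replicate 3). For the members it came from both sorts: in replicate 3, the level of Gm12794 was 0.91 below its group mean in RM-Zscan4+ and 0.43 above it in RM-Zscan4-, and that of BC061212 was 0.36 below and 0.33 above. By the file headers, replicates 1 and 3 had the same extraction date and replicate 2 another. Whether arrays of 1 date shared a run is not known here. On the date of replicates 1 and 3, the changes were 4.48 and 2.78 for Gm12794 and 4.26 and 3.41 for BC061212. On that of replicate 2 they were 5.09 and 4.64.

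**Figure D3:**
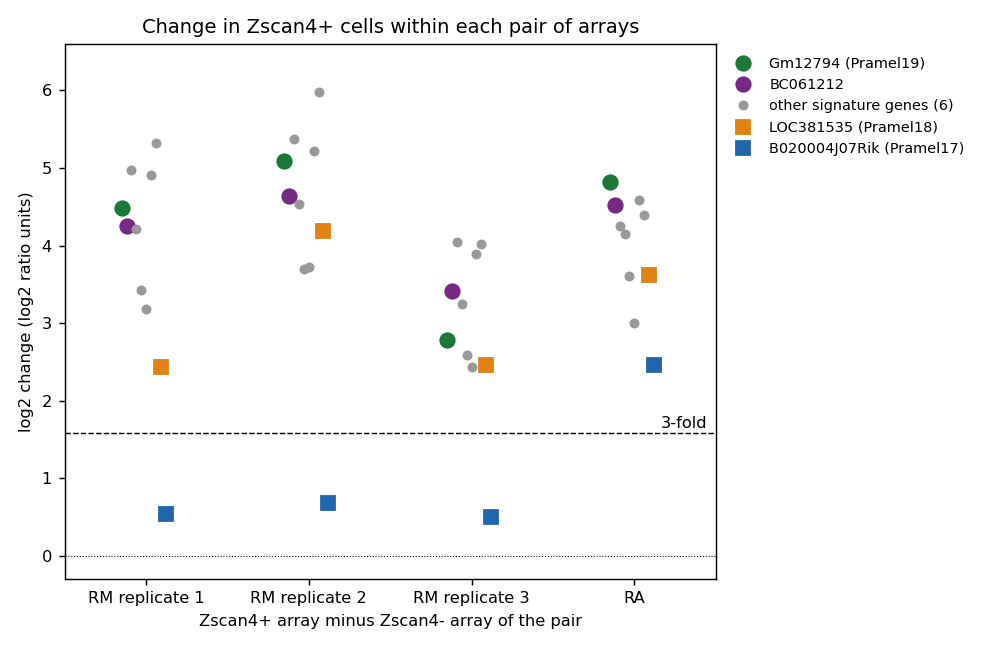
Log2 change from the Zscan4- to the Zscan4+ array within each of the 3 RM pairs and the RA pair, for Gm12794, BC061212, 6 other genes of the Zscan4 signature (gray) and 2 PRAME genes near Gm12794, with a dashed line at 3-fold. Gm12794 ranges from 2.78 to 5.09 and BC061212 from 3.41 to 4.64, and B020004J07Rik stays under 0.68 in the RM pairs and reaches 2.46 in RA.

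The levels of cells of one sort were then set side by side between the media. In Zscan4+ cells, Gm12794 was 0.78 higher on the log2 scale in RA than in RM (1.72-fold, standard error 0.60, interval from -0.68 to 2.24, limma, adjusted p = 0.697). BC061212 was 1.24 higher (2.36-fold, standard error 0.33, interval from 0.43 to 2.04, limma, adjusted p = 0.204), and its RA array was 0.82 above the highest RM array. From Cy3 alone, the difference of BC061212 was 1.97 (3.91-fold, limma, adjusted p = 0.268), past 3-fold but not called. With 3-fold and an adjusted p under 0.15, 0 of 2 members were called, against 94 of 41982 probes, or 0.224%. In Zscan4- cells, Gm12794 differed by 0.09 (1.07-fold, standard error 0.60, interval from -1.37 to 1.55, limma, adjusted p = 0.977) and lay within the range of the RM arrays. BC061212 was 0.82 higher in RA (1.77-fold, standard error 0.33, interval from 0.02 to 1.63, limma, adjusted p = 0.392), 0.49 above the highest RM array. Again 0 of 2 members were called, against 164 of 41982 probes, or 0.391%. Both RA arrays had an extraction date that no RM array had, so medium and extraction date cannot be told apart in these 2 comparisons.

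The reference channel moved with the sort as well. The reference is the same RNA on all arrays, but the processed Cy5 intensity of the BC061212 spot was 667, 672 and 618 in the RM-Zscan4+ hybridizations and 524, 507 and 486 in those of RM-Zscan4-. In the RA pair it was 996 with the positive cells against 399 with the negative cells. It was thus higher on the Zscan4+ array in 4 of 4 pairs, by 1.27, 1.33, 1.27 and 2.50 times, while the median probe moved by 0.95 to 1.04 times. For Gm12794 the Cy5 ratios were 0.99, 1.14 and 1.38 in the RM pairs and 1.54 in RA. Cy5 is the divisor of the ratio, so a higher Cy5 with the positive cells lowers the change by ratio. From Cy3 alone, the change of BC061212 was 4.49 in RM and 5.80 in RA, and that of Gm12794 was 4.35 and 5.40. In RM replicate 1, where its Cy5 ratio was 0.99, Gm12794 changed by 4.48 by ratio and 4.42 from Cy3 alone. The shift was not particular to the members, and in the RA pair all other signature genes but AF067063 had a larger one than BC061212. There Cy5 was 6286 against 966 for Zscan4, 13650 against 1993 for Gm4340 and 4106 against 764 for Eif1a. It was 2973 against 545 for Tcstv3, 1674 against 570 for Tcstv1 and 1121 against 458 for AF067063. The source of the Cy5 difference was not tested.

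**Figure D4:**
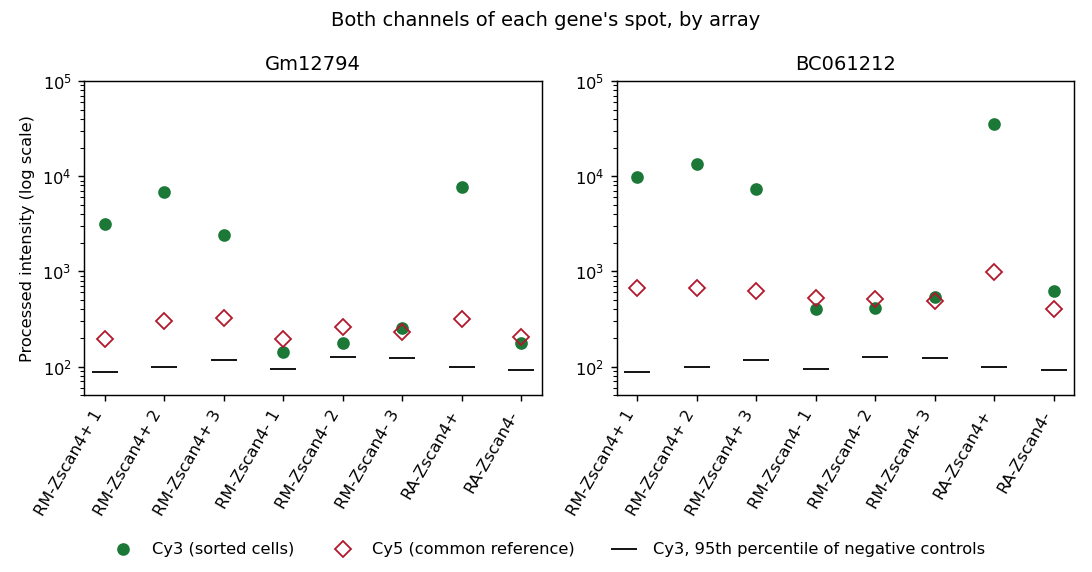
Processed intensity (log axis) of the Gm12794 and BC061212 spots on each array, with Cy3 of the sorted cells as filled circles, Cy5 of the common reference as open diamonds, and the 95th percentile of the negative controls in Cy3 as a bar. Cy3 of Gm12794 on the Zscan4- arrays is 143 to 254, next to the bar, and Cy5 of BC061212 is highest, at 996, on the RA-Zscan4+ array.

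The 2 members moved together. Pearson's r of their log2 ratios over the 8 arrays was 0.986, a description in which the arrays form 2 separate clusters by sort. For the deviations from the group means of the 6 RM arrays, r was 0.925. These deviations leave out the mean difference between the sorts, but not how far the sorts lay apart in each pair. That distance had the same extremes in all signature genes, and this r was not set against that of other probes. By likeness to Gm12794 over the 8 arrays, 30 other probes had a higher r than BC061212. The other named probes most like Gm12794 were C130092O11Rik (r = 0.997), AF067063 (0.995), Tmem92 (0.995), Eif1a (0.994) and 2310065F04Rik (0.991). Those most like BC061212 were Hmga2-ps1 (r = 0.997), Gm428 (0.997), Pif1 (0.996), LOC627530 (0.996) and EG667568 (0.996). Eif1a carries the name of a translation initiation factor and Pif1 is a DNA helicase. The RM changes of these 10 genes ran from 6.67-fold for LOC627530 to 23.6-fold for Tmem92. Only the 128 probes of the list had a name, so unnamed probes with a like pattern are not given.

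Among the other genes of the Zscan4 signature, 6 of 6 rose in RM (limma), with a median log2 change of 4.33. Of all probes, 0.193% rose and the median change was -0.01. All probes are no like background for this count. The genes were named through the same sort, and the sort used a Zscan4c reporter, so the count is no independent evidence. By ratio, Tcstv3 (34.4-fold) and Zscan4 (27.8-fold) had larger rises than the members, and Eif1a (9.45-fold) and Gm4340 (8.64-fold) smaller ones. AF067063 (16.0-fold) was closest in size to BC061212. From Cy3 alone the order turned: the log2 changes of Eif1a (5.30, 6.23 and 4.21 in the RM pairs) and Gm4340 (4.73, 5.84 and 3.90) were then above those of both members in 3 of 3 pairs. The differences between these genes were not tested, and the study takes these genes, apart from Tcstv3, which was added here as a related gene, as known markers of the metastate. In RA all 6 were over 3-fold higher, which the choice of named probes had fixed. By ratio, the RA folds of Gm12794 and BC061212 (28.1 and 22.9) stood above that of Zscan4 (19.1), but from Cy3 alone they stood below it (42.3 and 55.8, against 121).

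The PRAME neighbors of Gm12794 covered a wide range of changes. LOC381535 (Pramel18), whose probe is nearly the same as that of Gm12794, had log2 ratios of 2.27, 3.95 and 2.27 in RM-Zscan4+ and -0.16, -0.24 and -0.18 in RM-Zscan4-, with 3.67 in RA-Zscan4+ and 0.05 in RA-Zscan4-. It rose 8.14-fold in RM (log2 change 3.03, standard error 0.45, limma, adjusted p = 0.133) and was 12.3-fold higher in the RA pair. The rise was called without 1 of the 6 RM arrays, RM-Zscan4+ replicate 2 (limma, adjusted p = 0.00499), and lost without any of the other 5, with an adjusted p in limma of up to 0.478. Gm12794 changed more than LOC381535 in 4 of 4 pairs, by 1.09 on the log2 scale in RM and 1.19 in RA. In Cy3 the LOC381535 spot was the brighter of the 2 on every array. On the Zscan4- arrays it had 1015, 588 and 947 in RM and 701 in RA, against 143, 176, 254 and 176 for Gm12794. Whether this higher level bears on its smaller change was not tested. An exact permutation test of the RM difference gave a two-sided p of 0.1, the smallest that 3 against 3 arrays allow.

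B020004J07Rik (Pramel17) had a small change in RM. Its log2 ratios were 0.98, 0.59 and 0.43 in RM-Zscan4+ and 0.45, -0.08 and -0.06 in RM-Zscan4-, so the groups overlapped, and the change of 0.57 (1.48-fold) was not called (limma, adjusted p = 0.636). Within the pairs the change by ratio was 0.54, 0.67 and 0.49, higher in the positive cells in 3 of 3. With the replicate number as a block the adjusted p in limma was 0.0813, while the fold stayed under 3. From Cy3 alone the pair changes were -0.07, 1.17 and 1.09 (1.66-fold in RM, not called), so replicate 1 did not rise there. On the RA arrays the positive cells had 2.38 and the negative cells -0.08, a 5.48-fold difference. From Cy3 alone that difference was 3.47-fold. The RA values of this gene are given with no test, because its name comes from the study's list of genes that were high on this RA-Zscan4+ array. Of the 2 PRAME genes with a named probe besides the members, 1 was thus called in RM, where 0.193% of all probes were. Both were past 3-fold in RA, which the choice of named probes had fixed. The RM count rests on the same sort and is not free of that choice, so all probes are no like background for it. The called gene, LOC381535, also has the probe that may take signal from Gm12794 transcripts. The Gm12794 probe may likewise take signal from LOC381535 transcripts, so part of the rise of Gm12794 may be theirs, which was not tested. A further probe is named D5Ert577e, a letter away from an older name of a PRAME gene, and was not counted. Its change was 2.69-fold in RM (limma, adjusted p = 0.270) and 7.80-fold in RA. Of the genes listed for RA signaling (receptors, binding proteins and targets), 0 had a named probe, so the members could not be set against them.

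**Figure D5:**
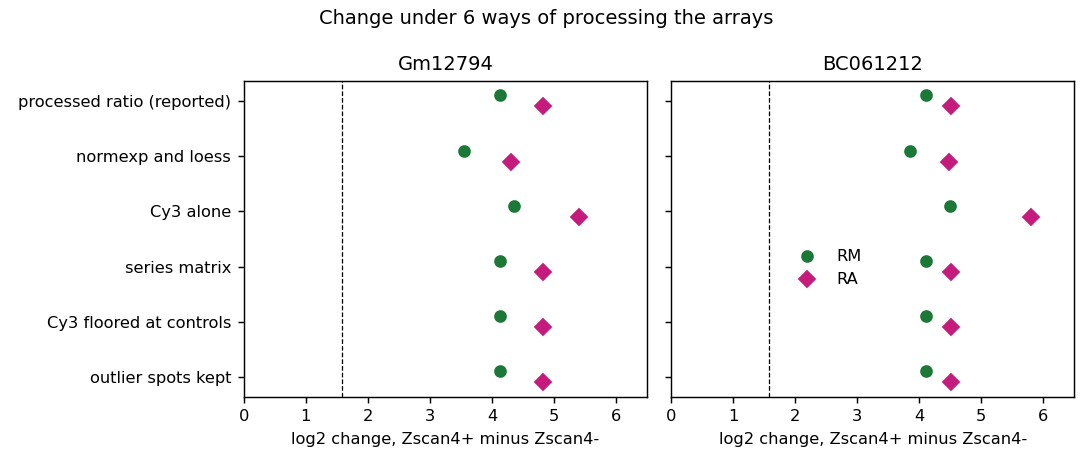
Log2 change of Gm12794 and BC061212 between Zscan4+ and Zscan4- cells in RM (circles) and in RA (diamonds) under 6 ways of processing the arrays, with a dashed line at 3-fold. All values lie between 3.55 and 5.80, and the RA change of BC061212 moves most, from 4.52 as a ratio to 5.80 from Cy3 alone. The series matrix, the floor and kept outlier spots could not move these genes beyond rounding. The matrix holds the same ratio plus a constant per probe, and no spot of either gene was an outlier or below the floor.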

How the data were processed

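For each array the authors deposited the scanner output: intensity values as mean, background and processed signals, the last after background subtraction and dye normalization by Feature Extraction (A.7.5.1 per the file headers). The deposited output also gives an error score per log ratio. A series matrix deposited beside it holds log10 values, 99.5% of which, within 0.001, were the log10 ratio (Cy3 over Cy5) with the probe's average log10 Cy5 added. Each probe was expressed as log2(processed Cy3 / processed Cy5), leaving out control and outlier spots and averaging the 5 spots of each of 7 repeated probes. A filter on signal above background removed 0 probes. Group means were fitted over all 42006 probes with limma 3.58.1 (R 4.3.3), with Benjamini-Hochberg adjustment, and the fit was tested on simulated data. The false discovery rate of 0.15 is that of the study's methods. Replicate numbers of the labels paired the RM arrays: deviations from the group means correlated across probes with 0.386, 0.559 and 0.590 within a number. The number of arrays limits the precision. Named genes were the members, the signature, PRAME, RA and marker lists, and the 5 named probes most like each member. Names came from the study's list of genes higher in RA-Zscan4+, and 80 of 128 matched 1 RefSeq gene. The members and lists were chosen with earlier results of these data known. Alternatives were normexp (offset 50) with loess, Cy3 alone (scaled to the 75th percentile), the series matrix, a floor, other filters, blocks, t-statistics with the variance of 500 probes of like intensity, and leaving out arrays.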

Additional observations from a re-analysis of the deposited data

Results flagged for a closer look

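The processed Cy5 intensity of the BC061212 spot, which comes from the common reference and not from the sorted cells, was 2.50 times higher on the RA-Zscan4+ array than on the RA-Zscan4- array, and it was higher on the Zscan4+ array in all 4 pairs. In the RA pair, 0.0691% of all probes had a larger Cy5 ratio. The RM ratios were between 1.27 and 1.33, and between 5.08% and 8.31% of all probes had larger ones. The shift was not particular to this gene, since in the RA pair Cy5 was 6286 against 966 for Zscan4 itself. The cause was not tested.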

How the results depend on the processing

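The RM rise of both members kept its direction under all alternatives run. The series matrix, the floor and kept outlier spots could not change its size beyond rounding, and blocks and filters left it at 4.12 and 4.10. Its size could move only with normexp and loess, from Cy3 alone or when an array was left out. For Gm12794 it lay between 3.77 and 4.57 on the log2 scale when 1 array was left out, and for BC061212 between 3.90 and 4.28. Under the t-statistics of the methods it was 4.12 and 4.10 and was not called, with an error variance never below that of neighboring probes and degrees of freedom from the arrays alone, and the signature genes called fell from 6 to 0. The exact permutation test gave 0.1 for both. With the replicate block, the RM changes were again 4.12 (limma, adjusted p = 0.0802) and 4.10 (limma, adjusted p = 0.0415), and the block changed no call of the members. From Cy3 alone, the RA change of BC061212 was 5.80. The RA versus RM value of Gm12794 in Zscan4- cells, near 0, lay between -0.043 and 0.31 when 1 array was left out. Over all probes, rises in RM numbered 81, with 105 under the replicate block, 99 from Cy3 alone, 52 to 93 without 1 array (52 without RM-Zscan4+ replicate 1) and 0 by the t-statistics. Probes whose RA change differed from their RM change numbered 0, but 3 with normexp and loess, 15 in the series matrix, 18 with outlier spots kept and 1 without RM-Zscan4+ replicate 3, and neither member was among them. Some alternatives were added after seeing the data: dim probes left out for the RA comparisons, and blocks and filters for the signature count. They changed no call. On the Zscan4- arrays, Gm12794 was so near the negative controls that its fold is less certain than that of BC061212.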
